A study of Mus musculus with 69 samples.

Results

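Bone marrow-derived macrophages (BMDMs) that lack Egr2 were compared with control BMDMs after 24 h of interleukin-4 (IL-4), across all genes. The comparison takes 4 of the 69 samples of the series, 2 RNA-seq libraries of each genotype. Control mice (Egr2WT) carried floxed Egr2 alleles (Egr2 fl/fl) without a recombinase, and knockout mice (Egr2MKO) carried the same alleles together with LyzM-Cre, so both genotypes share the floxed alleles. LyzM-Cre is driven from the Lyz2 locus and deletes in the myeloid lineage. No group carried Cre with intact Egr2, so effects of the Cre and of the deletion cannot be told apart. Female mice of 8 to 12 weeks were used, marrow was differentiated in medium with macrophage colony-stimulating factor, for 7 days per the labels, and cells received 20 ng/ml of mouse IL-4. The same genotypes under basal conditions and after 1 h and 6 h of IL-4, 12 libraries, entered the model and are used where the difference at 24 h is set beside earlier times.

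IL-4 binds a receptor that activates the transcription factor STAT6, and in macrophages this starts the program known as alternative activation, with arginine metabolism, chitinase-like proteins, lectins and matrix enzymes among its products. EGR2 is a zinc finger transcription factor of the early growth response family. It is itself induced by IL-4, and it binds GC-rich sites in promoters and enhancers. The NAB proteins bind EGR factors and repress their targets.

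The 4 libraries held between 9.54 and 12.2 M (mega) sequence tags, and the 16 libraries of the model between 4.69 and 32.9 M. Expression is given as TPM, a transcript level scaled for gene length and for the total of the library, and differences are Egr2MKO minus Egr2WT on the log2(TPM + 1) scale, which understates changes of low genes. Across genes, replicates at 24 h had a Pearson r of 0.989 in Egr2WT and 0.984 in Egr2MKO. The libraries were those of macrophages by their markers. The 10 macrophage markers summed to 15765 and 16014 TPM in Egr2WT and to 13185 and 13723 TPM in Egr2MKO, most of it from Lyz2, and none of them was at 0. Adgre1, Fcgr1 and Aif1 of this list were higher in Egr2MKO. Neutrophil markers summed to 20.0 to 22.1 TPM in Egr2WT and 11.1 to 16.3 TPM in Egr2MKO, and the lists for T, B, NK, mast, dendritic, erythroid, fibroblast and endothelial cells to at most 8.19 TPM in any library, with no member called. As RNA was taken from whole cultures, a smaller share of cells that express a gene and less RNA per cell cannot be told apart. The study calls its libraries biological replicates, and whether they came from separate mice is not given in the sources used here, so p-values measure the spread between these libraries.

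Many genes differed between Egr2MKO and Egr2WT after 24 h of IL-4, and rises and falls were both common. A gene was called when the fold difference exceeded 2 and the adjusted p was below 0.05 (limma, Benjamini-Hochberg adjustment over the 12079 genes tested of 24537 listed). Here and below, fold thresholds refer to the log2(TPM + 1) scale, where 2-fold is a difference of 1. For genes of low level the fold of the TPM itself can be larger. In Egr2MKO, 292 genes were higher (2.42% of those tested) and 258 were lower (2.14%), 550 in all (4.55%). Counts of called members in the gene lists below stand beside these shares. In each of the 550 genes, both Egr2MKO libraries lay on the same side of both Egr2WT libraries, as they did for 48.1% (higher) and 21.9% (lower) of all genes tested. Differences beyond 4-fold were found for 54 lower and 41 higher genes. Of the lower genes, 77 were under 1 TPM in both Egr2MKO libraries. With the adjusted p alone, 3131 genes were higher (25.9%) and 1389 lower (11.5%), most of them by less than 2-fold. The median difference of all genes tested was 0.12, so small positive differences are near the center of the distribution. After rescaling by the median ratio over genes, which moves that center toward 0, 221 genes were higher and 328 lower, and the share of higher genes among those called was 40.3% against 53.1% with the TPM as deposited. With quantile normalization it was 44.6%. Each of the 221 higher genes was also higher on the deposited TPM, and each of the 258 lower genes was also lower after the rescaling. As the rescaling shifts the differences downward, this nesting follows largely from the shift.

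Egr2 itself was measured at 101 and 99.5 TPM in Egr2WT and 4.72 and 7.05 TPM in Egr2MKO at 24 h. Both Egr2MKO libraries lay far below the control libraries, with a difference of -3.90 (SE 0.18, adjusted p = 1.3e-08) by limma. The same held under basal conditions, where Egr2 was at 23.6 and 21.3 TPM in Egr2WT and 0.859 and 0.854 TPM in Egr2MKO. The gene lies on chromosome 10, 67537869 to 67542188 on the plus strand (mm10). Reads were counted over all exons, and the exon that Cre removes is not given in the sources used here, so the remaining TPM may hold reads of a deleted transcript. Among the other members of the family, Egr1, an early response factor, was at 2.27 and 1.38 TPM in Egr2WT and 3.55 and 5.02 TPM in Egr2MKO. Its difference of 0.91 on the log2(TPM + 1) scale was short of the threshold (adjusted p = 0.025, limma). Without replicate 1 of Egr2WT or replicate 1 of Egr2MKO it passed the threshold, at 1.14 and 1.11. Egr3 was at or below 0.327 TPM in these libraries and Egr4 was listed at 0, and neither was tested. The corepressor Nab1 was at 19.0 and 18.8 TPM in Egr2WT and 36.9 and 36.4 TPM in Egr2MKO (0.92) and Nab2 at 17.4 and 16.4 TPM in Egr2WT and 13.6 and 10.4 TPM in Egr2MKO (-0.47), both short of a 2-fold difference. Lyz2, the lysozyme gene that carries the Cre, was at 11826 and 11662 TPM in Egr2WT and 8455 and 8044 TPM in Egr2MKO, a difference of -0.51 (adjusted p = 1.4e-06) that was under 2-fold.

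The genes that fell most in Egr2MKO encode proteins of different kinds, among them a retinol carrier, an integrin and a lipase. Rbp4, the plasma carrier of retinol, was at 44.8 and 40.2 TPM in Egr2WT and 0.887 and 0.994 TPM in Egr2MKO, and the libraries were apart by a difference of -4.49 (SE 0.19, adjusted p = 6.3e-09). Itgax, the integrin alpha X chain known as CD11c, was at 159 and 164 TPM in Egr2WT and 6.83 and 7.25 TPM in Egr2MKO. This was a 22.9-fold difference of means, with a log2 difference of -4.34 (SE 0.07, adjusted p = 3.9e-12), and the libraries of a genotype differed little from each other. Eef1a2, a translation elongation factor of muscle and neurons, was at 20.3 and 21.6 TPM in Egr2WT and 0.402 and 0.99 TPM in Egr2MKO (-3.71). Myrf, a membrane-bound transcription factor known from myelination, was at 21.6 and 18.7 TPM in Egr2WT and 0.538 and 1.25 TPM in Egr2MKO (-3.50). Mgll, which breaks down monoacylglycerols, was at 29.4 and 29.5 TPM in Egr2WT and 2.08 and 1.55 TPM in Egr2MKO (-3.44). Bex1, a brain-expressed X-linked gene, was at 15.1 and 15.1 TPM in Egr2WT and 0.95 and 0.426 TPM in Egr2MKO (-3.27). In Egr2MKO, Rbp4, Eef1a2, Myrf and Bex1 were at or below 1.25 TPM in both libraries.

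Chil3, the chitinase-like protein Ym1, was among the abundant genes that fell, at 2485 and 2457 TPM in Egr2WT and 259 and 254 TPM in Egr2MKO (-3.26, SE 0.17, adjusted p = 2.7e-08). It thus stayed well expressed in Egr2MKO, at about the same level in both libraries. Serpinb9b, a protease inhibitor, was at 100.1 and 101 TPM in Egr2WT and 11.9 and 15.7 TPM in Egr2MKO (-2.79). Tuba8, an alpha-tubulin, was at 23.8 and 21.6 TPM in Egr2WT and 2.24 and 2.38 TPM in Egr2MKO (-2.84), and Galnt9, a glycosyltransferase, at 9.62 and 10.6 TPM in Egr2WT and 0.176 and 0.59 TPM in Egr2MKO (-3.02). Under basal conditions Tuba8 was at or near 0 in both genotypes, while Galnt9 was already lower in Egr2MKO (-1.51).

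**Figure D1:**
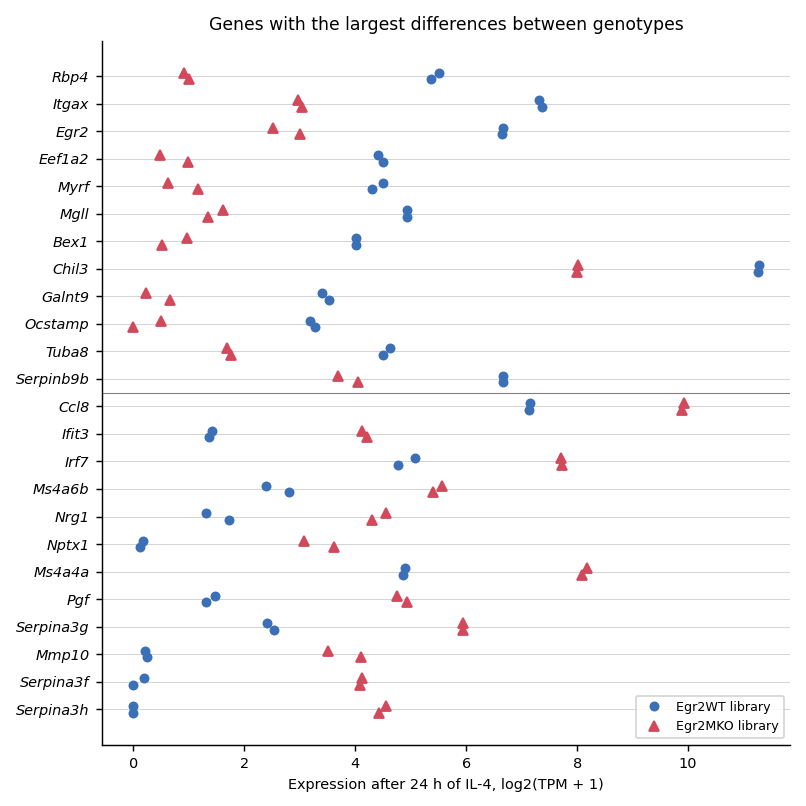
Expression at 24 h of IL-4 of the 12 genes with the largest fall and the 12 with the largest rise in Egr2MKO, as log2(TPM + 1) on the x axis, with a point for each of the 2 Egr2WT (blue circles) and 2 Egr2MKO (red triangles) libraries. The gap between genotypes exceeds the gap between replicates for every gene shown, and Serpina3h is listed at 0 in both Egr2WT libraries.

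The genes listed here for alternative activation were lower in Egr2MKO more often than higher. The list was chosen with earlier results of these data known, and its lower members include Rbp4, Matk and Atp6v0d2. Of 26 tested, 10 were lower and 1 was higher, with a median of -0.82 against 0.12 for all genes. The other 15 were not called, among them Retnla, Mrc1, Mgl2, Pdcd1lg2, Ccl24 and Pparg. Ccl22, a chemokine that attracts T cells through CCR4, was at 16.5 and 14.4 TPM in Egr2WT and 2.42 and 1.62 TPM in Egr2MKO (-2.45, SE 0.20, adjusted p = 1.5e-06). Atp6v0d2, a subunit of the proton pump, was at 630.2 and 659 TPM in Egr2WT and 126 and 116 TPM in Egr2MKO (-2.40, SE 0.048, adjusted p = 2.7e-11), and both genotypes kept it expressed. Tgm2, a transglutaminase, was at 114 and 109 TPM in Egr2WT and 36.9 and 38.3 TPM in Egr2MKO (-1.54), and Cdh1, E-cadherin, at 17.3 and 17.3 TPM in Egr2WT and 4.88 and 7.14 TPM in Egr2MKO (-1.40). Clec10a, a galactose-binding lectin, was the called gene in the opposite direction, at 33.4 and 32.9 TPM in Egr2WT and 86.2 and 88.9 TPM in Egr2MKO (1.37, SE 0.15, adjusted p = 2.1e-05). Arg1, the arginase that defines this state in mice, was chosen for mention after its value was seen and had a mean of 3445 TPM in Egr2WT and 2992 TPM in Egr2MKO, a difference of -0.20 (adjusted p = 0.54) that did not pass the test. Fn1, fibronectin, also named after its value was seen, had a mean of 28.7 TPM in Egr2WT and 4.28 TPM in Egr2MKO, and its difference of -2.49 did not pass the test either (SE 1.29, adjusted p = 0.15).

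Genes of the IL-4 receptor pathway moved in both directions. Of 16 tested, 1 was higher and 2 were lower, against 2.42% and 2.14% of all genes, with a median of 0.22. Il4ra, the alpha chain that binds IL-4, was at 30.0 and 27.5 TPM in Egr2WT and 69.0 and 66.2 TPM in Egr2MKO (1.21, SE 0.056, adjusted p = 1.3e-08). Il13ra1, which pairs with it in the receptor for IL-4 and IL-13, was at 9.16 and 8.45 TPM in Egr2WT and 2.94 and 2.52 TPM in Egr2MKO (-1.39, SE 0.12, adjusted p = 2.4e-06). Cish, a feedback inhibitor induced by STAT factors, was at 50.7 and 50.7 TPM in Egr2WT and 23.1 and 22.4 TPM in Egr2MKO (-1.12, SE 0.091, adjusted p = 1.5e-06). The libraries of the genotypes did not overlap for any of these genes. With a pseudocount of 5 TPM, Il13ra1 was under 2-fold (-0.84). The other members were not called, and Stat6, named after its value was seen, differed by 0.098. Under basal conditions neither Il4ra (0.11) nor Il13ra1 (-0.06) was called, and the differences at 24 h minus basal were 1.10 and -1.33 (adjusted p = 6.3e-06 and 2.9e-04, limma interaction).

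Adhesion and fusion genes were called in the lower direction. Of 16 integrins and adhesion receptors tested, 4 were lower and 0 higher (3 higher and 8 lower by adjusted p alone). Besides Itgax and Cdh1 these were Itgb3, the beta 3 chain of the vitronectin receptor, and Itgb2, the beta chain that pairs with CD11b and CD11c. Itgb3 was at 189 and 181 TPM in Egr2WT and 48.5 and 50.3 TPM in Egr2MKO (-1.88, SE 0.072, adjusted p = 3.4e-09), and Itgb2 at 1044 and 1018 TPM in Egr2WT and 434 and 446 TPM in Egr2MKO (-1.23, SE 0.032, adjusted p = 2.2e-10). Of 10 genes of macrophage fusion and osteoclasts tested, 5 were lower and 0 higher (2 higher and 6 lower by adjusted p alone). Ocstamp, a multipass protein needed for cell fusion, was at 8.09 and 8.66 TPM in Egr2WT and 0.419 and 0 TPM in Egr2MKO (-2.98). Dcstamp, its relative, was at 4.06 and 4.08 TPM in Egr2WT and 0.647 and 0.761 TPM in Egr2MKO (-1.57), and with a pseudocount of 5 TPM its difference was -0.67. In Egr2MKO both genes were under 1 TPM in every library.

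Enzymes of the extracellular matrix divided. Of 11 metalloproteinases and inhibitors tested, 3 were higher and 4 lower, and after median-ratio scaling 1 was higher. Mmp12, the macrophage elastase, was at 3697 and 3741 TPM in Egr2WT and 584 and 729 TPM in Egr2MKO (-2.51, SE 0.085, adjusted p = 1.2e-09). Mmp19 was at 139 and 133 TPM in Egr2WT and 38.0 and 39.8 TPM in Egr2MKO (-1.78), and Mmp8, a collagenase best known from neutrophils, at 99.8 and 98.9 TPM in Egr2WT and 36.2 and 43.9 TPM in Egr2MKO (-1.30). Mmp13, another collagenase, was at 75.8 and 73.9 TPM in Egr2WT and 177 and 263 TPM in Egr2MKO (1.52, SE 0.16, adjusted p = 1.3e-05), above the control in both libraries. Mmp10, or stromelysin 2, was outside the list and among the strongest rises. It was at 0.162 and 0.182 TPM in Egr2WT and 10.4 and 16.2 TPM in Egr2MKO (3.58, SE 0.22, adjusted p = 1.5e-07), so it was barely detected in control libraries. These genes share a cluster on chromosome 9, except Mmp19, and they did not move in one direction.

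In the list of coagulation and fibrinolysis, 4 of 13 tested genes were lower and 0 higher (1 higher and 7 lower by adjusted p alone), with a median of -0.58. Plaur, the urokinase receptor, was at 103 and 101 TPM in Egr2WT and 14.0 and 24.0 TPM in Egr2MKO (-2.41, SE 0.21, adjusted p = 2.5e-06). Procr, the receptor for protein C, was at 72.0 and 70.6 TPM in Egr2WT and 14.6 and 14.1 TPM in Egr2MKO (-2.24, SE 0.049, adjusted p = 5.7e-11). F3, tissue factor, was low throughout, at 1.57 and 1.51 TPM in Egr2WT and 0.146 and 0.098 TPM in Egr2MKO (-1.18), and Tgm2 also belongs to this list. The control libraries were higher for each of these genes.

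In the list of NRF2, the factor of the oxidative stress response, and antioxidant genes all calls were lower. Of 18 tested, 5 were lower and 0 higher, with a median of -0.67, and 13 were lower and 2 higher by adjusted p alone. Slc7a11, the cystine transporter, was at 47.6 and 46.4 TPM in Egr2WT and 7.10 and 7.30 TPM in Egr2MKO (-2.55, SE 0.083, adjusted p = 1.0e-09). Prdx1, a peroxiredoxin, was at 2604 and 2684 TPM in Egr2WT and 742 and 712 TPM in Egr2MKO (-1.86, SE 0.058, adjusted p = 8.3e-10). Txnrd1, a thioredoxin reductase, was at 156 and 155 TPM in Egr2WT and 63.0 and 63.8 TPM in Egr2MKO (-1.28), and Srxn1, which restores oxidized peroxiredoxins, at 155 and 154 TPM in Egr2WT and 65.9 and 64.8 TPM in Egr2MKO (-1.23). Replicates differed by far less than genotypes in all 4. Under basal conditions Slc7a11 was also lower (-1.03), and Prdx1 was at -0.62, under 2-fold.

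Calls in the metabolic lists stand beside 4.55% of all genes called in either direction. Ass1, which makes argininosuccinate for arginine synthesis, was at 53.1 and 52.0 TPM in Egr2WT and 16.9 and 19.4 TPM in Egr2MKO (-1.48, SE 0.15, adjusted p = 1.1e-05), as 1 lower gene among 15 of arginine and polyamine metabolism. Ptgs2, the inducible prostaglandin synthase, was at 17.5 and 14.5 TPM in Egr2WT and 6.13 and 6.92 TPM in Egr2MKO (-1.17), as 1 lower gene among 13 of eicosanoid synthesis. No gene was called among 20 of glycolysis and HIF targets (13 lower and 1 higher by adjusted p alone), 20 of oxidative phosphorylation (9 and 0), 18 of cholesterol synthesis (5 and 0) and 21 of the lysosome (6 and 9). With median-ratio scaling, 2 genes of the list of glycolysis and HIF targets were lower. Pkm, the pyruvate kinase, was at 1324 and 1295 TPM in Egr2WT and 1116 and 1143 TPM in Egr2MKO (-0.21) and Aldoa, an aldolase, at 1958 and 1906 TPM in Egr2WT and 1921 and 2056 TPM in Egr2MKO (0.04, turning to -0.097 with median-ratio scaling and to -0.0077 without replicate 2 of Egr2MKO). Atp5b, a subunit of ATP synthase, was at 721 and 729 TPM in Egr2WT and 596 and 582 TPM in Egr2MKO (-0.30). Ctsd, a lysosomal protease, was at 9793 and 9598 TPM in Egr2WT and 7377 and 7246 TPM in Egr2MKO (-0.41), and Ctsb, another, at 4945 and 4851 TPM in Egr2WT and 5467 and 5416 TPM in Egr2MKO (0.15, turning to -0.087 with quantile normalization).

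Most genes of the cell cycle list passed the adjusted p without reaching a 2-fold difference. Of 24 tested, 0 were called, 18 were higher by adjusted p alone and 0 lower, and the median was 0.54 against 0.12 for all genes. Mcm6, a subunit of the replication helicase, was at 44.2 and 50.4 TPM in Egr2WT and 77.1 and 83.3 TPM in Egr2MKO (0.75, adjusted p = 5.6e-06), and Pcna, the sliding clamp, at 119 and 132 TPM in Egr2WT and 132 and 150.5 TPM in Egr2MKO (0.17, adjusted p = 0.077). Under basal conditions the median of the list was -0.30, and 5 of its genes were called higher for the difference at 24 h minus basal.

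The genes that rose most in Egr2MKO included a cluster of serine protease inhibitors. Serpina3h was listed at 0 in both Egr2WT libraries and was at 22.5 and 20.5 TPM in Egr2MKO, so no fold is given. Serpina3f was at 0.137 and 0 TPM in Egr2WT and 16.5 and 15.9 TPM in Egr2MKO, and Serpina3g at 4.30 and 4.82 TPM in Egr2WT and 60.6 and 60.7 TPM in Egr2MKO (3.47, SE 0.14, adjusted p = 4.6e-09). Egr2MKO libraries were higher in each case. Of 11 listed genes of the Serpina3 cluster 5 were tested, and all 5 were called higher, as Serpina3i and Serpina3n were at 2.54 and 1.41. Serpina3i did not exceed 0.84 TPM in any Egr2WT library of the model. It passed the filter of 1 TPM through Egr2MKO alone and could hardly be called lower. The Serpina3 family and the Ms4a, Ifi200, guanylate-binding, IRG and Schlafen families were chosen after values were seen, so their counts are a description. The Serpina3 genes are neighbors of similar sequence on chromosome 12. The listed spans of Serpina3f (chromosome 12, 104214544 to 104221129) and Serpina3g (chromosome 12, 104214544 to 104241934) overlap, so reads may have been divided among them.

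Pgf, the placental growth factor of the VEGF family, was at 1.78 and 1.49 TPM in Egr2WT and 25.8 and 29.6 TPM in Egr2MKO (3.44, SE 0.28, adjusted p = 1.5e-06). Nrg1, a ligand of ERBB receptors, was at 1.47 and 2.32 TPM in Egr2WT and 22.5 and 18.7 TPM in Egr2MKO (2.91, SE 0.18, adjusted p = 1.6e-07), and Nptx1, a neuronal pentraxin, at 0.132 and 0.089 TPM in Egr2WT and 7.39 and 11.3 TPM in Egr2MKO (3.19). Under basal conditions all 3 were at or below 0.76 TPM in every library. Of 17 growth factors of repair tested, 3 were higher and 0 lower (9 higher and 4 lower by adjusted p alone). Pdgfc, a platelet-derived growth factor, was at 5.02 and 5.22 TPM in Egr2WT and 19.2 and 17.8 TPM in Egr2MKO (1.67), and Hbegf, a ligand of the EGF receptor, at 2.06 and 2.77 TPM in Egr2WT and 4.84 and 8.13 TPM in Egr2MKO (1.10). Hbegf was under 2-fold with median-ratio scaling (0.997), without replicate 1 of Egr2WT (0.95) and without replicate 2 of Egr2MKO (0.78).

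Members of the Ms4a cluster, which encode membrane proteins with 4 membrane passes, were higher in 6 of 8 tested. Ms4a4a was at 28.9 and 28.0 TPM in Egr2WT and 289 and 271 TPM in Egr2MKO (3.25, SE 0.28, adjusted p = 2.4e-06), and Ms4a6b at 4.24 and 5.96 TPM in Egr2WT and 46.1 and 41.3 TPM in Egr2MKO (2.89, SE 0.15, adjusted p = 3.0e-08). Ms4a7, the most abundant, was at 312 and 329 TPM in Egr2WT and 918 and 892 TPM in Egr2MKO (1.50). These paralogs lie together on chromosome 19, and sequence shared between them may have divided reads.

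Genes that type I interferon raises were higher in Egr2MKO as a group. Of 23 tested, 17 were higher and 0 lower, with a median of 1.47 against 0.12 for all genes, and differences ranged from 0.23 to 2.80. With median-ratio scaling or quantile normalization, 15 were higher and 0 lower. Irf7, the factor that drives interferon production, was at 32.8 and 26.3 TPM in Egr2WT and 208 and 212 TPM in Egr2MKO (2.80, SE 0.075, adjusted p = 2.3e-10), a 7.12-fold difference of means. Ifit3 was at 1.68 and 1.57 TPM in Egr2WT and 16.4 and 17.6 TPM in Egr2MKO (2.78, SE 0.14, adjusted p = 2.5e-08), and Ifit1 at 6.04 and 4.21 TPM in Egr2WT and 32.2 and 31.0 TPM in Egr2MKO (2.43, SE 0.15, adjusted p = 1.7e-07), both antiviral proteins with close paralogs that may share reads. Oas2, an oligoadenylate synthetase, was at 5.11 and 5.00 TPM in Egr2WT and 25.3 and 28.5 TPM in Egr2MKO (2.20). For these 4 genes, no Egr2MKO library overlapped with the control. Under basal conditions 7 genes of the list were called higher and 0 lower, and its median was 0.75 against 0.015 for all genes.

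Other families linked to interferon were higher too. In the Ifi200 family of DNA sensors 9 of 10 tested genes were higher, and in the guanylate-binding proteins 4 of 8. Among the GTPases of the IRG group 5 of 6 were higher and in the Schlafen family 4 of 7, against 2.42% of all genes. In each of these families 0 were lower. With a pseudocount of 5 TPM the counts of higher genes were 6, 2, 2 and 2. Ifi208 and Ifi213, both called higher, did not exceed 0.779 and 0.6 TPM in any Egr2WT library of the model. They passed the filter of 1 TPM through Egr2MKO alone and could hardly be called lower. Ifi209 was at 3.32 and 3.90 TPM in Egr2WT and 23.1 and 20.5 TPM in Egr2MKO (2.31), Gbp9 at 2.12 and 2.07 TPM in Egr2WT and 14.5 and 13.0 TPM in Egr2MKO (2.25), and Irgm1, which acts in autophagy of bacteria, at 37.1 and 36.0 TPM in Egr2WT and 102 and 94.7 TPM in Egr2MKO (1.40). Among the 8 interferon regulatory factors, 3 were higher and 1 was lower. Irf1 was at 33.2 and 28.9 TPM in Egr2WT and 72.6 and 66.3 TPM in Egr2MKO (1.14, SE 0.081, adjusted p = 5.0e-07) and Irf9, a factor of the interferon response, at 23.8 and 23.1 TPM in Egr2WT and 48.7 and 47.5 TPM in Egr2MKO (1.01), the latter under 2-fold after median-ratio scaling (0.87) and at 0.99 without replicate 2 of Egr2WT or replicate 1 of Egr2MKO. Irf4, which acts in alternative activation, was lower, at 18.2 and 18.4 TPM in Egr2WT and 6.31 and 7.17 TPM in Egr2MKO (-1.32, SE 0.12, adjusted p = 5.3e-06), and with a pseudocount of 5 TPM at -0.99.

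The promoters of called genes were searched for 3 kinds of motif, in the 250 bases before the start in RefSeq (GRCm38.p6, on both strands). Of the 12079 genes tested, 9079 had a promoter in the table, among them 211 of the higher and 181 of the lower genes. The interferon-stimulated response element, searched as GAAA, any 2 bases and GAAA, was present in 17.5% of promoters of higher genes, in 1.10% of lower genes and in 2.83% of all. Among 17 promoters of the interferon list, 9 had it. A STAT6 site, searched as TTC, any 4 bases and GAA, was in 9.00% of promoters of higher genes, 6.08% of lower genes and 4.66% of all. An EGR site, GTGGGCG, was in 6.16%, 10.5% and 13.3% in the same order, and its longer form GCGTGGGCG, which contains the short one, was in 0 of 211, 1.10% and 1.11%. These are matches of letters in a short window, not binding sites, and enhancers were not searched.

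Promoters are printed for 4 higher genes with the interferon element, for Itgax with a STAT6 match, and for Ccr1, a lowered chemokine receptor with an EGR match. Capitals mark the matches and each run is 5′ to 3′ on the strand of the gene, ending at the base before the start. The matches begin 104 and 85 bases before the start in Ifit1 (chr19:34640639-34640888, plus strand), 156 and 122 in Ifit3 (chr19:34583279-34583528, plus strand), and 78, 72 and 66 in Isg15 (chr4:156200819-156201068, minus strand), where they overlap. They begin 213 bases before the start in Cxcl10 (chr5:92348890-92349139, minus strand), 127 in Itgax (chr7:128129300-128129549, plus strand) and 23 in Ccr1 (chr9:123968693-123968942, minus strand).
Ifit1: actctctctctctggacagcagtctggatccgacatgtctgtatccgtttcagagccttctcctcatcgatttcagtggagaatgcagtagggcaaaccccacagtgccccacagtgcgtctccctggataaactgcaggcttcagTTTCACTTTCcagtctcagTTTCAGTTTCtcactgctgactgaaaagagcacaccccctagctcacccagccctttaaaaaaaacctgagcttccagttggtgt
Ifit3: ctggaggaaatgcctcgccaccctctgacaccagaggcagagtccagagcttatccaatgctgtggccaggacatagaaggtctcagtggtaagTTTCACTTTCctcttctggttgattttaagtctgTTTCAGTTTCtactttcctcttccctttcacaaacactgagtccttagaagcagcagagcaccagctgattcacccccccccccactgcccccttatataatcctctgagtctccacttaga
Isg15: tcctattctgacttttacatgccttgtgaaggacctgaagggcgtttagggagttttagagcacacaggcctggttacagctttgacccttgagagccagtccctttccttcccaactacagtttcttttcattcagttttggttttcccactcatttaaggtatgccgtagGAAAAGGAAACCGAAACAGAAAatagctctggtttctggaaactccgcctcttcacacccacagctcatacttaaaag
Cxcl10: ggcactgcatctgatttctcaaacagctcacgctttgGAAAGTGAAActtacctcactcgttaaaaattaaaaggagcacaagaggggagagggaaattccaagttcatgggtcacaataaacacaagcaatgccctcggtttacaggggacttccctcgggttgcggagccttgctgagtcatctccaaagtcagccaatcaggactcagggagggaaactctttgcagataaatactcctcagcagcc
Itgax: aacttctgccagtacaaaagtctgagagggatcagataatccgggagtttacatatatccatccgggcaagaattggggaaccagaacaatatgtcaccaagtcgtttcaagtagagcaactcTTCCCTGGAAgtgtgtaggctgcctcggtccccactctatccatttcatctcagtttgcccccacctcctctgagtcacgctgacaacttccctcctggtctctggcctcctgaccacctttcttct
Ccr1: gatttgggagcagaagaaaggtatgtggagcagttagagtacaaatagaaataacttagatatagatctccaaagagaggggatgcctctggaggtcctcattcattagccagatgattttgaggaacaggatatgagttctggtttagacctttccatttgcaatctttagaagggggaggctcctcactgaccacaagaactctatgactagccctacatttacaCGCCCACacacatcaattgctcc

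Chemokines were more often higher than lower. Of 18 tested, 8 were higher and 3 lower, against 2.42% and 2.14% of all genes. Ccl8, a CC chemokine, was at 140.4 and 139.7 TPM in Egr2WT and 972 and 950.0 TPM in Egr2MKO (2.77, SE 0.18, adjusted p = 2.0e-07). Ccl4, a chemokine of inflammation, was at 29.8 and 34.9 TPM in Egr2WT and 108 and 126 TPM in Egr2MKO (1.82, SE 0.11, adjusted p = 1.6e-07), and Cxcl10, which attracts T cells through CXCR3 and is induced by interferon, at 1.53 and 2.14 TPM in Egr2WT and 7.97 and 9.88 TPM in Egr2MKO (1.81). Ccl22 moved in the other direction, as given above. Of 15 receptors for chemoattractants, 4 were higher and 1 was lower. C5ar1, the receptor for complement C5a, was at 43.4 and 46.4 TPM in Egr2WT and 199 and 219.9 TPM in Egr2MKO (2.20, SE 0.08, adjusted p = 2.4e-09), and Cxcr4 at 52.8 and 51.7 TPM in Egr2WT and 177 and 172 TPM in Egr2MKO (1.72, SE 0.056, adjusted p = 1.0e-09). Ccr1, whose promoter is printed above, was at 64.4 and 72.6 TPM in Egr2WT and 14.0 and 15.8 TPM in Egr2MKO (-2.13, SE 0.13, adjusted p = 1.2e-07). Ccr3 was called higher at low levels, at 0.299 and 0.287 TPM in Egr2WT and 2.08 and 1.79 TPM in Egr2MKO (1.18), and with a pseudocount of 5 TPM its difference was 0.39.

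Of 28 cytokines and receptors tested, 2 were higher and 2 lower, against 2.42% and 2.14% of all genes. Csf3r, the receptor for G-CSF, was at 26.4 and 23.0 TPM in Egr2WT and 98.9 and 98.4 TPM in Egr2MKO (1.96, SE 0.078, adjusted p = 4.2e-09). Csf1, the growth factor M-CSF itself, was at 38.6 and 39.0 TPM in Egr2WT and 12.4 and 12.4 TPM in Egr2MKO (-1.57, SE 0.11, adjusted p = 3.3e-07). Il1a was at 17.8 and 15.2 TPM in Egr2WT and 5.83 and 7.37 TPM in Egr2MKO (-1.21), while Il10, an anti-inflammatory cytokine, was low in all libraries, at 0.107 and 0.12 TPM in Egr2WT and 2.10 and 1.41 TPM in Egr2MKO (1.30). With a pseudocount of 5 TPM, the differences of Il10 and Il1a were under 2-fold (0.40 and -0.89) and were no longer called.

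Among receptors for antibodies and complement proteins, higher calls outnumbered lower ones. Of 17 tested, 7 were higher and 1, Itgax, was lower, with a median of 0.78, and 5 were higher after median-ratio scaling. Fcgr1, the high-affinity receptor for IgG, was at 4.65 and 4.30 TPM in Egr2WT and 33.1 and 34.7 TPM in Egr2MKO (2.67, SE 0.10, adjusted p = 3.7e-09). C3, the central complement protein, was at 250.0 and 242 TPM in Egr2WT and 726 and 683 TPM in Egr2MKO (1.51, SE 0.036, adjusted p = 1.5e-10), and Fcgrt, which recycles IgG, at 16.8 and 16.2 TPM in Egr2WT and 45.2 and 43.0 TPM in Egr2MKO (1.37). Replicates lay close together in all 3. In MHC class II presentation, 2 of 10 tested genes were higher and 0 lower (5 higher and 0 lower by adjusted p alone). Ciita, the transactivator of class II genes, was at 7.00 and 6.11 TPM in Egr2WT and 16.4 and 15.9 TPM in Egr2MKO (1.18). Cd74, the invariant chain, was at 589.5 and 579 TPM in Egr2WT and 1199 and 1181 TPM in Egr2MKO (1.03), and was under 2-fold after median-ratio scaling (0.89).

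Ligands for T cells divided, with 2 of 11 tested higher and 2 lower, against 2.42% and 2.14% of all genes. Cd86, a ligand of CD28, was at 2.26 and 3.65 TPM in Egr2WT and 7.54 and 8.41 TPM in Egr2MKO (1.20), and Cd40 at 5.11 and 5.44 TPM in Egr2WT and 10.5 and 13.3 TPM in Egr2MKO (1.03). Without replicate 1 of Egr2WT neither passed 2-fold (0.95 and 0.99), nor did Cd40 without replicate 2 of Egr2MKO (0.87) or with median-ratio scaling (0.91). With a pseudocount of 5 TPM neither passed 2-fold (0.71 for each), and 0 genes of the list were higher. Cd276, the ligand B7-H3, was at 10.9 and 9.95 TPM in Egr2WT and 2.15 and 1.73 TPM in Egr2MKO (-1.96, SE 0.13, adjusted p = 2.1e-07), and Tnfsf4, the ligand of OX40, at 3.83 and 3.02 TPM in Egr2WT and 0.68 and 0.571 TPM in Egr2MKO (-1.44). The lower genes thus had the larger differences of this list.

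Of 13 C-type lectins tested, 3 were higher and 2 lower, against 2.42% and 2.14% of all genes. Clec4a1 was at 69.8 and 67.8 TPM in Egr2WT and 299 and 289 TPM in Egr2MKO (2.08, SE 0.056, adjusted p = 2.3e-10), and Clec12a, an inhibitory receptor, at 37.5 and 39.2 TPM in Egr2WT and 94.1 and 92.3 TPM in Egr2MKO (1.26, SE 0.054, adjusted p = 7.4e-09). Clec7a, the beta-glucan receptor dectin-1, was at 782 and 802 TPM in Egr2WT and 261 and 248 TPM in Egr2MKO (-1.63, SE 0.053, adjusted p = 1.0e-09). Both genotypes expressed all 3 in every library. Among 16 scavenger and dead-cell receptors tested, 2 were higher and 2 lower. Olr1, a receptor for oxidized LDL, was at 7.17 and 6.33 TPM in Egr2WT and 0.448 and 0.302 TPM in Egr2MKO (-2.49, SE 0.16, adjusted p = 1.8e-07), and Mfge8, which bridges dead cells to phagocytes, at 829 and 823 TPM in Egr2WT and 336 and 335 TPM in Egr2MKO (-1.30, SE 0.041, adjusted p = 9.8e-10). Gas6, a ligand of MERTK and AXL, was at 98.8 and 93.2 TPM in Egr2WT and 202 and 200.2 TPM in Egr2MKO (1.06), and Marco, a scavenger receptor, at 50.7 and 56.2 TPM in Egr2WT and 115 and 105 TPM in Egr2MKO (1.03). Both were under 2-fold with median-ratio scaling (0.92 and 0.90), and no gene of the list was then higher, while Marco was also under 2-fold without replicate 1 of Egr2WT or of Egr2MKO (both 0.96). No gene was called among 12 Toll-like receptor genes tested (8 higher and 1 lower by adjusted p alone). Tlr8 was at 116 and 119 TPM in Egr2WT and 145 and 138 TPM in Egr2MKO (0.27) and Tlr13 at 118 and 121 TPM in Egr2WT and 86.4 and 95.9 TPM in Egr2MKO (-0.39).

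In lipid handling, 3 of 18 tested genes were higher and 1 was lower, against 2.42% and 2.14% of all genes. Apoe, the apolipoprotein of cholesterol efflux, was at 85.7 and 86.8 TPM in Egr2WT and 517 and 463 TPM in Egr2MKO (2.49, SE 0.07, adjusted p = 3.6e-10), a 5.68-fold difference of means. Apoc2, its neighbor on chromosome 7 and a cofactor of lipoprotein lipase, was at 3.19 and 3.30 TPM in Egr2WT and 11.5 and 9.36 TPM in Egr2MKO (1.42). Mylip, a ubiquitin ligase, was at 25.6 and 24.1 TPM in Egr2WT and 61.0 and 59.6 TPM in Egr2MKO (1.25). Lpl, lipoprotein lipase, was lower at 1216 and 1246 TPM in Egr2WT and 505 and 518 TPM in Egr2MKO (-1.27, SE 0.065, adjusted p = 2.7e-08), and the replicates of each gene lay on 1 side of the other genotype.

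The list of the macrophage lineage holds transcription factors and the receptor gene Csf1r. Of 16 tested, 2 were higher and 2 lower, against 2.42% and 2.14% of all genes. Maf was at 23.9 and 25.6 TPM in Egr2WT and 81.3 and 89.0 TPM in Egr2MKO (1.74, SE 0.08, adjusted p = 1.3e-08) and is a large MAF factor of mature macrophages. Bhlhe40, a repressor of the basic helix-loop-helix family, was at 191 and 182 TPM in Egr2WT and 68.1 and 63.7 TPM in Egr2MKO (-1.49, SE 0.071, adjusted p = 1.6e-08), and Runx3 at 11.6 and 10.8 TPM in Egr2WT and 4.56 and 4.81 TPM in Egr2MKO (-1.10). Of 14 AP-1 and early response genes, 1 was higher and 0 lower (1 higher and 3 lower by adjusted p alone). This was Ier3, an early response gene that limits cell death, at 74.2 and 75.3 TPM in Egr2WT and 196 and 189 TPM in Egr2MKO (1.35, SE 0.056, adjusted p = 5.5e-09). No gene was called among 10 Kruppel-like factors (3 higher and 2 lower by adjusted p alone). Klf6 was at 86.8 and 89.3 TPM in Egr2WT and 111 and 119 TPM in Egr2MKO (0.38) and Klf13 at 45.1 and 45.3 TPM in Egr2WT and 54.5 and 55.1 TPM in Egr2MKO (0.27).

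**Figure D2:**
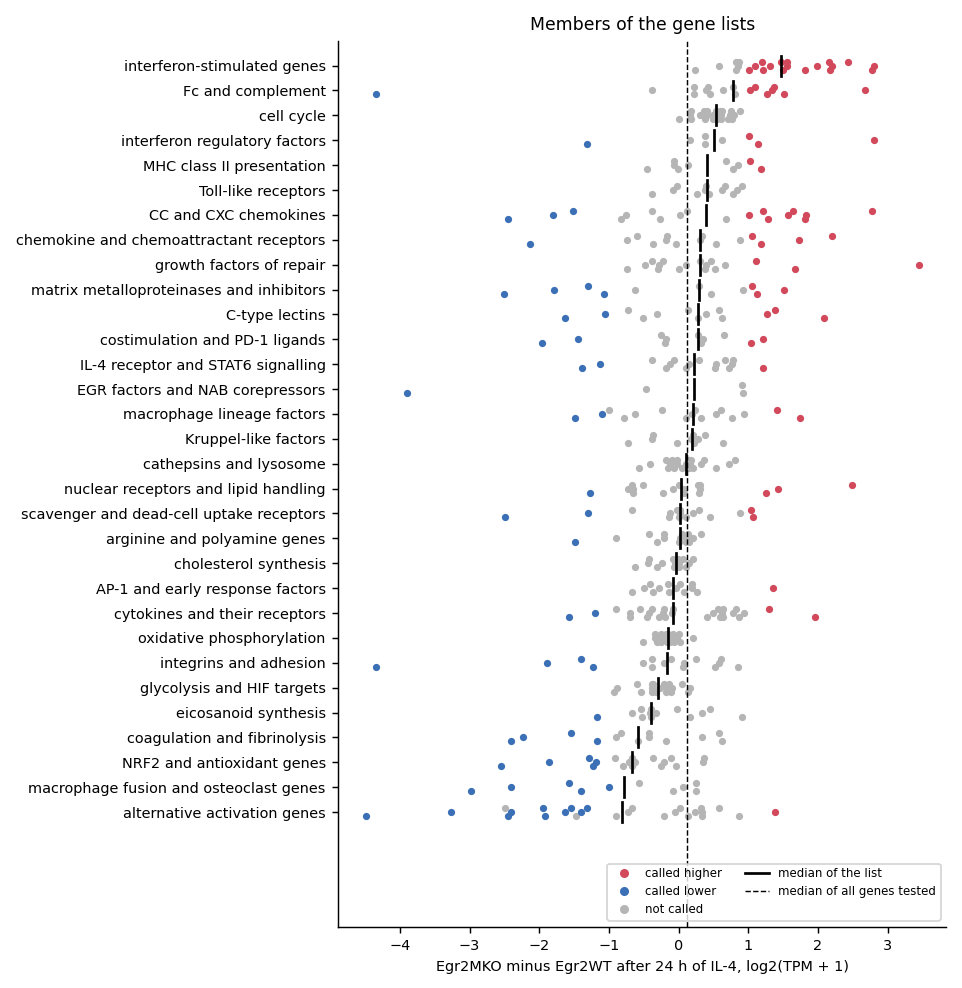
Difference between Egr2MKO and Egr2WT at 24 h of IL-4, as log2(TPM + 1) on the x axis, for each tested member of the 31 gene lists (points, red called higher, blue called lower, gray not called), with the median of each list (black bar) and of all genes tested (dashed line, 0.12). Interferon-stimulated genes have the highest median at 1.47 and alternative activation genes the lowest at -0.82.

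The difference between the genotypes was already present for a part of these genes before IL-4. Under basal conditions 45 genes were higher (0.373% of those tested) and 58 lower (0.48%), and after 1 h of IL-4 58 (0.48%) and 70 (0.58%). After 6 h, 108 were higher (0.894%) and 170 lower (1.41%), so that the number called at 24 h was the largest of the 4 times. Each time has its own libraries of both genotypes. Of the 258 genes lower at 24 h, 49 were called lower under basal conditions, 55 at 1 h and 101 at 6 h, and 0 were called higher at any of these times. Of the 292 higher genes, 41, 50 and 68 were called higher, and 0 lower. By adjusted p alone (limma), 129 of the 258 were lower and 168 of the 292 higher under basal conditions. The median basal difference was -0.53 for the lower and 0.50 for the higher genes, against 0.015 for all genes tested. It was below 0 in 232 of the 258 and above 0 in 259 of the 292. The differences between genotypes at 24 h and under basal conditions differed from each other by more than 2-fold in 137 genes in the higher direction (1.13%) and 93 in the lower direction (0.77%), by the interaction term of the model. By this term, 85 of the 258 lower genes were called lower and 98 of the 292 higher genes were called higher. With median-ratio scaling, 89 genes in all were called in the higher direction and 125 in the lower direction. With quantile normalization these counts were 100 and 109, so higher calls outnumbered lower ones only without such rescaling.

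Several of the largest differences were present without IL-4. Atp6v0d2 was at 126 and 123 TPM in basal Egr2WT and 15.7 and 16.5 TPM in basal Egr2MKO (-2.88), and the change of this difference to 24 h was under 2-fold (0.47). Itgax was at 25.4 and 25.8 TPM against 2.45 and 2.25 TPM (-2.99), and Mgll at 23.2 and 24.3 TPM against 2.46 and 3.21 TPM (-2.70). Apoe was at 131 and 138 TPM against 616 and 724 TPM (2.31), close to its difference at 24 h. In contrast, Rbp4 did not exceed 0.296 TPM in any basal library (-0.12). Pgf, Nrg1, Nptx1 and Mmp10 likewise had basal differences between -0.27 and -0.01. Irf7 took another course. It was at 110.0 and 109 TPM in basal Egr2WT and 251 and 249 TPM in basal Egr2MKO, and at 24 h at 32.8 and 26.3 TPM and 208 and 212 TPM.

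Between these times, Serpina3g was at 36.9 and 44.2 TPM in Egr2WT and 129 and 128 TPM in Egr2MKO after 6 h of IL-4, above the levels at 24 h in both genotypes. Pgf was at 4.17 and 2.35 TPM in Egr2WT and 12.2 and 6.08 TPM in Egr2MKO after 6 h, and its Egr2WT libraries were lower again at 24 h. Rbp4 was at 0.284 and 0.4 TPM in Egr2WT and 0 and 0 TPM in Egr2MKO after 6 h, so its levels at 24 h were reached after that time. Chil3 was at 280.0 and 267 TPM in Egr2WT and 68.0 and 115 TPM in Egr2MKO. Time courses thus differed between genes of the same direction.

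**Figure D3:**
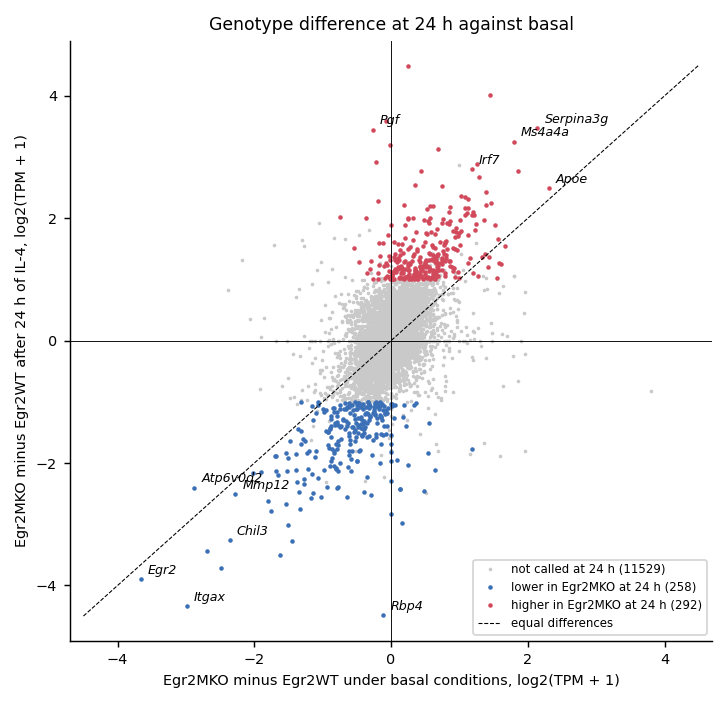
Difference between Egr2MKO and Egr2WT after 24 h of IL-4 (y axis) against the same difference under basal conditions (x axis), both as log2(TPM + 1), with a point for each of the 12079 genes tested, colored by the call at 24 h (258 lower in blue, 292 higher in red). Egr2, Mmp12 and Apoe lie near the dashed line of equal differences, while Rbp4 and Pgf lie near a basal difference of 0.

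**Figure D4:**
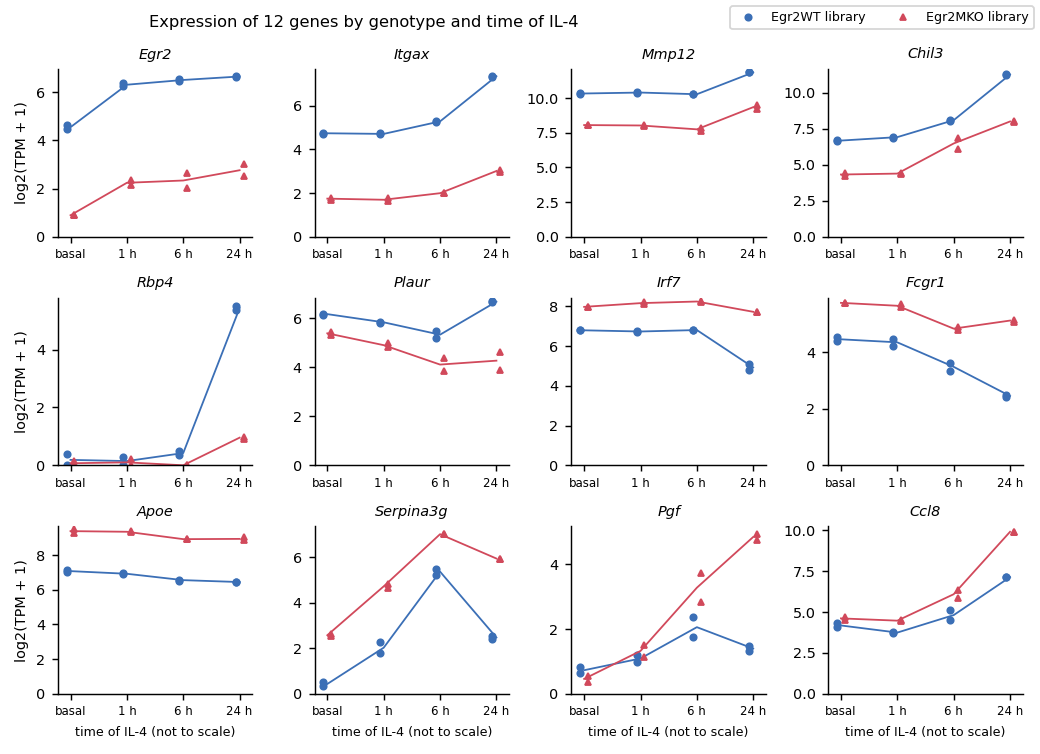
Expression as log2(TPM + 1) of 12 genes in Egr2WT (blue circles) and Egr2MKO (red triangles) under basal conditions and after 1 h, 6 h and 24 h of IL-4, with a point for each of the 2 libraries and a line through their means. Genotypes are apart at all times for Egr2, Itgax, Mmp12 and Apoe, and for Rbp4 and Pgf mainly at the later times.

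To see how the affected genes behave in wild-type cells, their response to 24 h of IL-4 was taken from C57 BMDMs in 2 other tables, which share no library with this comparison. In the time course of C57 (2 libraries a group), 344 genes were induced (2.85% of those tested) and 352 repressed (2.91%) at the same thresholds. Of the 258 lower genes, 245 were tested there, and 79 were induced and 17 repressed, with a median response of 0.44 against -0.02 for all genes. Of the 292 higher genes, 272 were tested, and 20 were induced and 63 repressed, with a median of -0.41. Seen from the response, 79 of the 333 induced genes tested in both tables were lower in Egr2MKO (23.7%) and 20 higher (6.01%). Among 350 repressed genes, 17 were lower (4.86%) and 63 higher (18.0%).

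In the 5-strain table (3 libraries a group), 271 genes were induced in C57 (2.28%) and 182 repressed (1.53%). There 60 of 248 lower genes were induced and 14 repressed, while 30 of 271 higher genes were induced and 24 repressed, so more of the higher genes were repressed than induced in the time course but not here. Of the 181 genes induced in both tables, 51 were lower in Egr2MKO (28.2%), 17 higher (9.39%), and the rest were not called. Rbp4 rose with IL-4 in C57 by 4.96 and 4.85 on the log2 scale in the 2 tables, and Chil3 by 4.42 and 4.72. Fcgr1, higher in Egr2MKO, was repressed in the time course (-2.11) and not called in the 5-strain table (-0.30). Mmp13 was induced in C57 (4.45 and 3.54) and higher in Egr2MKO, so the direction in C57 did not fix the direction of the difference between genotypes.

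**Figure D5:**
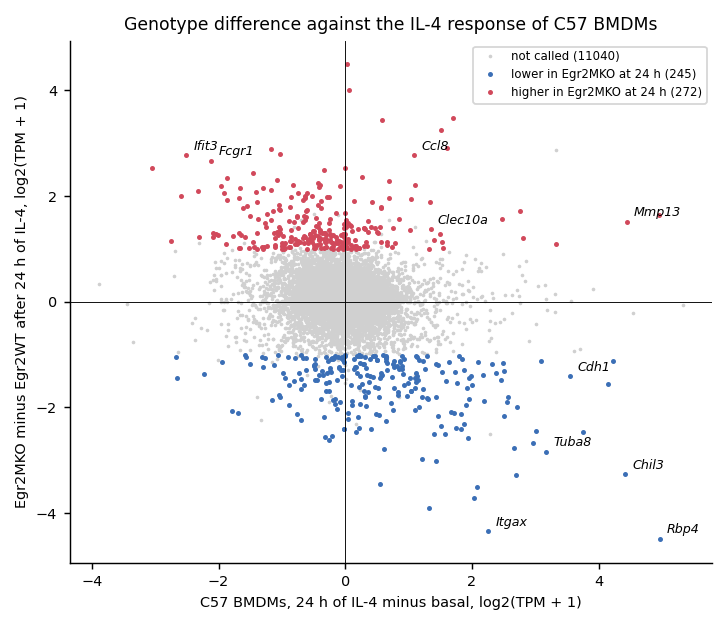
Difference between Egr2MKO and Egr2WT after 24 h of IL-4 (y axis) against the response of C57 BMDMs to 24 h of IL-4 in the time course (x axis), both as log2(TPM + 1), for genes tested in both tables, with 245 lower genes in blue and 272 higher genes in red. The median response is 0.44 for lower and -0.41 for higher genes, and Rbp4 and Chil3 lie at the lower right while Mmp13 and Ccl8 are induced in C57 and higher in Egr2MKO.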

How the data were processed

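RNA-seq libraries of poly(A) RNA were read as 75-base single ends. The authors aligned reads with STAR 2.5.3 and made the deposited TPM values with HOMER 4.11.1, per gene over all exons on mm10; for strain libraries MMARGE 1.0 shifted alignments to mm10. The tables hold no read counts per gene, so no count test was run. Their columns of DESeq2 fold changes and p-values were not used, nor were the F1 and human tables.

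TPM values were tested as log2(TPM + 1) with limma 3.58.1 (R 4.3.3). The model had 8 group means over 16 libraries with an intensity trend, and genes with at least 1 TPM in 2 libraries were kept. Adjusted p-values (Benjamini-Hochberg) are over all 12079 genes. C57 libraries were tested in the same way within their own tables. In a check on simulated data of the 24 h comparison (12079 genes), 96% of 100 genes changed by 1.5 (log2) and 98% of 100 changed by 2 were called, with 3 false calls. The changed genes had a mean log2(TPM + 1) above 2, and the simulated noise was normal, without counting error. These rates therefore do not carry over to genes of low level.

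Named genes are the EGR and NAB genes and Lyz2; the 12 largest falls and the 12 largest rises (length at least 200 bases, mean at least 5 TPM); up to 4 called members of each of 31 lists, or the 2 most expressed where none was called; and 5 genes with the largest basal difference. A few named genes are not reported here. Genes, families and lists were chosen with earlier results of these data known. Alternatives were pseudocounts of 0.1 and 5 TPM, filters, 2 other scalings, a replicate block and leaving out each library. Figures were drawn with matplotlib 3.10.9.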

Additional observations from a re-analysis of the deposited data

Results flagged for a closer look

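For the genes given here, the difference between Egr2MKO and Egr2WT was not the same at 24 h of IL-4 as under basal conditions, by the interaction term of the limma model (more than 2-fold, adjusted p under 0.05, 2 libraries a group). Each value is the 24 h difference minus the basal difference on the log2(TPM + 1) scale. More negative differences at 24 h were found for Rbp4 -4.37, Ocstamp -3.14, Ccl22 -2.93, Tuba8 -2.84, Myrf -1.87 and Bex1 -1.83. The next were Plaur -1.63, Slc7a11 -1.52, Galnt9 -1.51, Tgm2 -1.43, Dcstamp -1.35 and Olr1 -1.35. Then came Itgax -1.35, Mmp19 -1.33, Il13ra1 -1.33, Prdx1 -1.24, Eef1a2 -1.23 and Procr -1.18. These were followed by Mmp8 -1.17, F3 -1.12, Cd276 -1.09, Serpinb9b -1.04 and Cdh1 -1.03.

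More positive differences at 24 h were found for Serpina3h 4.25, Pgf 3.71, Mmp10 3.66, Nptx1 3.20, Nrg1 3.13 and Serpina3f 2.57. Smaller ones were those of Ccl8 2.34, Mmp13 2.05, Ms4a6b 1.63, Oas2 1.63, Irf7 1.62 and C5ar1 1.58. After these came Clec10a 1.53, Pdgfc 1.47, Ms4a4a 1.46, Csf3r 1.42, Fcgr1 1.38 and Serpina3g 1.33. The remaining values were Ier3 1.25, Maf 1.21, Ccl4 1.15, Il4ra 1.10, Il10 1.09 and Cd86 1.07. Last were Hbegf 1.07, Ifit1 1.04 and Mylip 1.01. Serpina3h was listed at 0 in both Egr2WT libraries at 24 h and Serpina3f in 1 of them. Their fitted values therefore depend on the pseudocount and are no bounds. Values of other genes near 0 in 1 genotype also depended on the settings. Over the alternatives, the 24 h difference itself was 1.81 to 5.59 for Mmp10 and 1.47 to 5.46 for Nptx1. It was -5.22 to -1.36 for Ocstamp, -4.54 to -1.49 for Galnt9 and -4.44 to -2.09 for Myrf.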

How the results depend on the processing

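The 292 higher and 258 lower genes at 24 h became 156 and 114 with a pseudocount of 5 TPM, 385 and 379 with 0.1 TPM, 221 and 328 with median-ratio scaling, 238 and 296 with quantile normalization, and 250 and 184 among genes of at least 5 TPM in 2 libraries. Leaving out 1 library gave 288 to 308 higher and 245 to 276 lower. For the difference at 24 h minus basal, 137 higher and 93 lower genes became 62 and 36 with 5 TPM. They became 89 and 125 with median-ratio scaling and 100 and 109 with quantile normalization. Leaving out 1 library gave 122 to 149 and 70 to 98. In the C57 time course 344 induced and 352 repressed genes became 216 and 169 with 5 TPM, and 585 were repressed with 0.1 TPM. Leaving out 1 library gave 337 to 363 and 333 to 404. In the table of 5 strains, 271 induced and 182 repressed genes became 412 and 350 with 0.1 TPM and 160 and 80 with 5 TPM. Leaving out 1 library gave 261 to 290 and 157 to 199. The cause was not tested.

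Among 108 named genes, 1573 of 1615 values kept their direction and their side of the threshold, 37 lost the call and 2 gained it (both Egr1). With a pseudocount of 5 TPM, calls lost included F3 (-0.35), Tnfsf4 (-0.58), Runx3 (-0.74), Ptgs2 (-0.86), Apoc2 (0.90) and Ciita (0.87). Aldoa turned to -0.097 with median-ratio scaling and, from 0.041, to -0.0077 without replicate 2 of Egr2MKO (leaving out 1 library gave -0.0077 to 0.090), and Ctsb to -0.087 with quantile normalization.

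Residuals of same-numbered libraries at 24 h had r = -0.0018. Over the 28 pairs of groups the mean was -0.0046, with single pairs from -0.14 to 0.057. These values do not show whether same-numbered libraries were prepared together. With a replicate block, 293 genes were higher and 257 lower at 24 h, and 133 and 89 for the difference at 24 h minus basal. The tables hold TPM and no read counts per gene, so the counting error of low genes was not estimated.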

Other observations

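The enzymes of heme synthesis, chosen after values were seen, held 1 called gene of 8 tested, against 4.55% of all genes. Alas1, the rate-limiting enzyme of heme synthesis, was at 483 and 479.7 TPM in Egr2WT and 78.2 and 76.7 TPM in Egr2MKO at 24 h, a difference of -2.62, and the other 7 genes of the pathway were not called. Under basal conditions Alas1 was also lower (-1.80).

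Near the loci that were altered, within 10 Mb of Egr2, 4 genes were higher and 4 lower of 95 tested (8.42%). Within 10 Mb of Lyz2, 1 of 69 was called (1.45%), against 4.55% of all genes.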
